A study of Homo sapiens with 3 samples.

Results

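Genes of glycolysis and of the response to low oxygen were followed in 5637 cells, an established human bladder cancer line, after transfection of siRNA against MYBL2. The 40 genes were taken by symbol from the 35851 rows of the expression table, and each had 1 row. They comprise 25 glycolytic genes (enzymes, their regulators, and transporters of glucose and lactate) and 15 other hypoxia genes (HIF factors, oxygen sensors and HIF targets outside glycolysis). Poly(A) RNA was sequenced from 1 control library (siNC) and from 2 libraries after MYBL2 siRNA, called siMYBL2-1 and siMYBL2-2. MYBL2 is a transcription factor of late cell cycle genes, and the study asked which genes lie downstream of it in bladder cancer. All 3 libraries came from the same line, labelled as wild type, grown in RPMI 1640 with serum and transfected with Lipofectamine 3000. The sources used here give neither an oxygen level nor a time after transfection. Whether siMYBL2-1 and siMYBL2-2 had different siRNA sequences is not stated, and separate cultures are not named, so p-values cover only the spread among these libraries, possibly a technical one.

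Glycolysis splits glucose into pyruvate in the cytosol, and lactate dehydrogenase turns pyruvate into lactate, which leaves the cell through monocarboxylate transporters. Hypoxia-inducible factors (HIF) are pairs of an oxygen-regulated alpha subunit, such as HIF1A or EPAS1 (HIF-2 alpha), and ARNT. With oxygen, EGLN prolyl hydroxylases mark the alpha subunit for VHL and the proteasome, and without it the pair binds hypoxia response elements with the core ACGTG or GCGTG and raises glycolytic genes and others such as CA9 and VEGFA. Many tumour cells keep glycolysis high in oxygen as well, with HK2, LDHA and SLC16A1 also known as targets of MYC.

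The libraries held 40259436 to 46177658 reads in the rows, and mitochondrially encoded genes took 6.04% to 7.25% of them. Levels are RPKM, reads per kilobase of exon in 1000000 assigned reads. MYBL2 itself was at 211 RPKM in siNC, 46.0 in siMYBL2-1 and 56.3 in siMYBL2-2. All 10 epithelial and urothelial markers had reads in every library, with summed levels of 1913 to 2478 RPKM, the highest being KRT19. The summed levels were 3.64 to 5.53 RPKM for 6 leukocyte markers (CD68 held nearly all, and 3 had 0 reads in each library), 0.0937 to 0.277 for 4 endothelial markers, 1.37 to 2.03 for 5 fibroblast and muscle markers (mostly COL1A1, with DES at 0) and 0.0224 to 0.0304 for the 2 of 4 erythroid markers with a row. Of the 10, only the adhesion genes CDH1 (14.8 RPKM in siNC, 36.2 in siMYBL2-1, 8.98 in siMYBL2-2) and EPCAM (102, 177 and 71.8 RPKM) were highest in siMYBL2-1 and lowest in siMYBL2-2. HK1, GPI, ALDOA, PKM, LDHA, SLC16A3, VEGFA, EGLN1 and P4HA1, whose values are given with their roles, had that order too. The other 8 epithelial and urothelial markers did not: KRT5, TP63 and PPARG were lowest in siMYBL2-1, KRT19 was highest in siNC, and KRT7, KRT8, KRT18 and GATA3 were lowest in siNC. The part of these markers in the members' values was not tested. In bulk RNA, fewer cells of a type and less RNA per cell cannot be told apart.

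No member passed the test for siMYBL2 against siNC, and neither did MYBL2 itself, with a log2 change of -2.03. The lack of calls therefore does not show that the members were unchanged. The test was limma-trend on log2(RPKM + 1) with Benjamini-Hochberg adjustment over the 13274 genes that averaged 1 RPKM or more, at a threshold of 0.05. Of the 40 members 34 were above that mean and were tested, 21 glycolytic and 13 others. Their smallest adjusted p was 0.691 (NDRG1), and 0 of 34 were called, beside 0.00753% of all genes called higher and 0% called lower. An unadjusted p under 0.05 was reached by 3 members, NDRG1, EPAS1 and SLC16A1, against 4.71% of all genes, and limma-voom on the reads recovered from the table also called 0 members. The siMYBL2 pair gives the only residual degree of freedom, and siNC is taken to have the same spread. An exact permutation test of a single gene over 1 against 2 libraries cannot give a p below 0.333. What follows is therefore a description of levels, and "higher" or "lower" refers to the libraries and not to a call.

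Among members on the same side of siNC in both siMYBL2 libraries, the glycolytic genes were more often above siNC. The other hypoxia genes were more often below it, as were all genes tested. Of the 21 glycolytic genes tested, 9 were higher than siNC in both libraries, 4 were lower in both and 8 went in opposite directions. Of the 13 other hypoxia genes tested, 3 were higher in both, 6 were lower in both and 4 went in opposite directions. Over all genes tested, 29.7% were higher in both, 36.4% lower in both and 33.9% opposite. The median difference from siNC on the log2(RPKM + 1) scale, on which differences of low genes come out too small, was 0.14 in siMYBL2-1 and 0.02 in siMYBL2-2 for the glycolytic genes, -0.03 and -0.16 for the others, and -0.04 and -0.01 for all genes. The difference between the groups was not tested. With genes of at least 5 RPKM only 7 of the other hypoxia genes remain, 3 of them lower in both, and their median in siMYBL2-1 is 0.31 in place of -0.03.

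Most members differed little. On the log2(RPKM + 1) scale 1 member, NDRG1, was at least 1.5-fold lower in both libraries (2.02% of all genes), and 0 were 1.5-fold higher in both (1.32% of all genes). On that scale 0 members were 2-fold lower in both (0.407% of all genes) or 2-fold higher in both (0.211%). Folds given for single genes are ratios of RPKM and run larger for low genes. The summed level of the 25 glycolytic genes was 950 RPKM in siNC, 1040 in siMYBL2-1 and 1001 in siMYBL2-2. The 15 other hypoxia genes summed to 157, 138 and 128 RPKM. Single genes carried much of these differences. Without ENO1 the glycolytic sum was 776 RPKM (siNC), 822 (siMYBL2-1) and 780 (siMYBL2-2), and without DDIT4 the other sum was 111, 105 and 97.2 RPKM. As a share of reads the 25 glycolytic genes took 0.432%, 0.478% and 0.436%. The deposited length counts every annotated exon of a row. It was between 1.02 (EGLN1) and 3.84 (ALDOA) times, and for VEGFA 12 times, the longest principal transcript of GENCODE release 29. Levels compared between genes depend on this length, as do differences on the log2(RPKM + 1) scale and the filter at 1 RPKM. Ratios of RPKM between libraries do not.

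**Figure D1:**
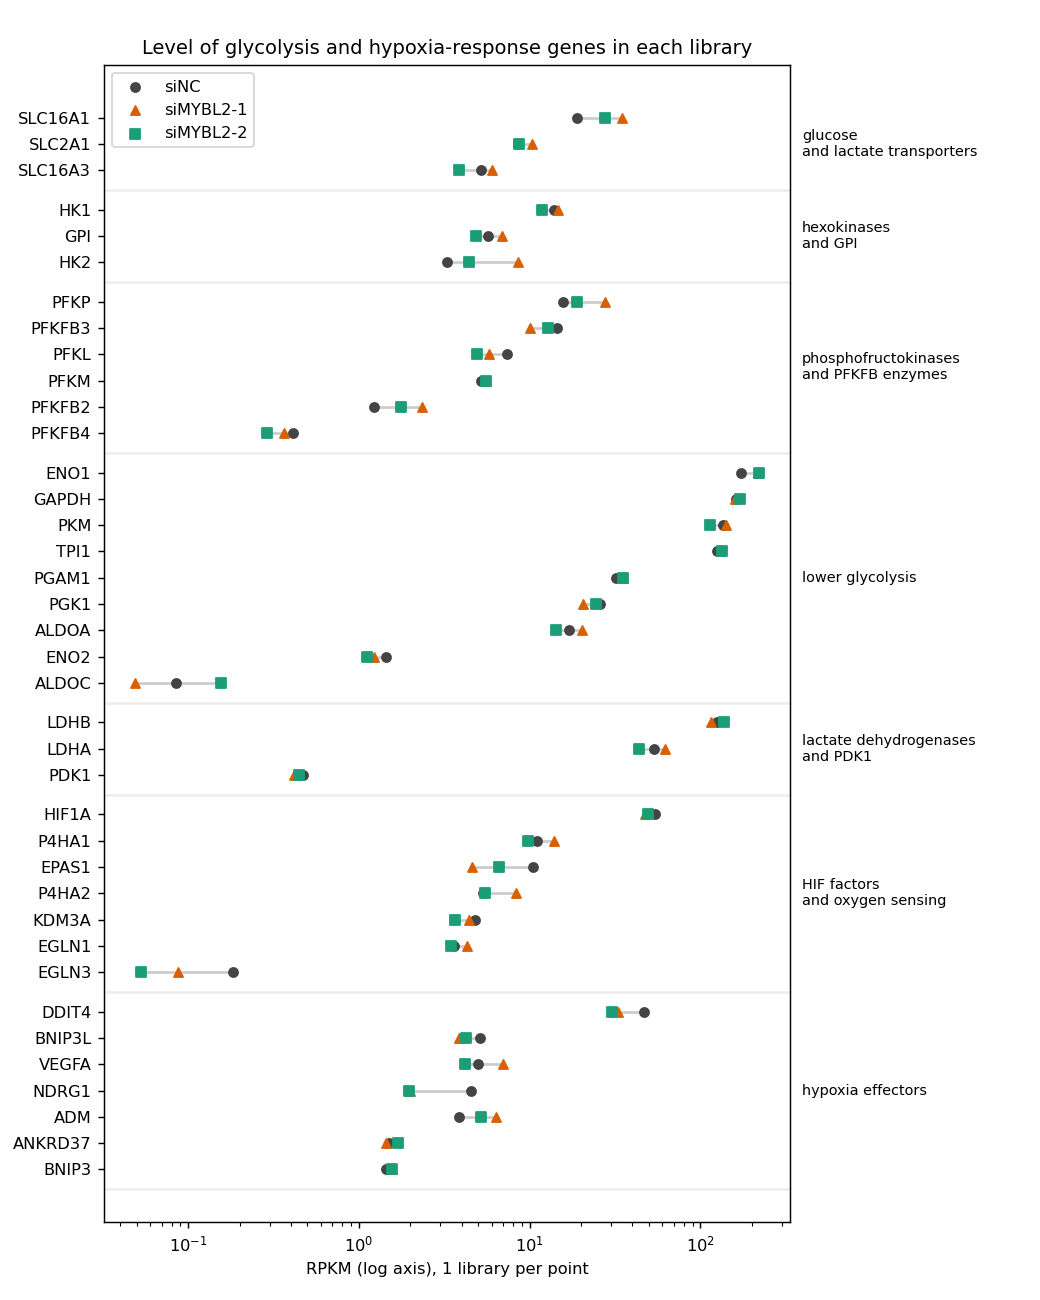
Level of each member in RPKM on a log axis, 1 point per library (siNC circles, siMYBL2-1 triangles, siMYBL2-2 squares), grouped by role, with a grey line from the lowest to the highest library. SLC2A3 and CA9 are not drawn because they had 0 reads in at least 1 library. Enzymes of lower glycolysis such as ENO1 (173 to 221 RPKM) lie at the top of the range, and the widest lines among genes above 1 RPKM belong to HK2, NDRG1 and EPAS1.

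Sequence upstream of the gene start is shown for 6 members with an entry in the table of RefSeq promoters (GRCh38.p14). They are HK2, PFKP, DDIT4, EPAS1 and ADM, from the 4 of each group with the largest differences that both siMYBL2 libraries shared, and LDHA, which had opposite directions. Each run gives the 250 bases before the first listed start, 5′ to 3′ on the strand of the gene. Capitals mark the hypoxia response element cores ACGTG and GCGTG or their reverse complements.
HK2, chr2:74833877-74834126, plus strand: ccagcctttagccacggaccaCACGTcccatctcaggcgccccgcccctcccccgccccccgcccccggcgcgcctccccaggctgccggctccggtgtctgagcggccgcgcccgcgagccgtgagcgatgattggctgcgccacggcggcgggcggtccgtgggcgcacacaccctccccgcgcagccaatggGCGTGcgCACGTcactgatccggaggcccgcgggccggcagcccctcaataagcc
PFKP, chr10:3067720-3067969, plus strand: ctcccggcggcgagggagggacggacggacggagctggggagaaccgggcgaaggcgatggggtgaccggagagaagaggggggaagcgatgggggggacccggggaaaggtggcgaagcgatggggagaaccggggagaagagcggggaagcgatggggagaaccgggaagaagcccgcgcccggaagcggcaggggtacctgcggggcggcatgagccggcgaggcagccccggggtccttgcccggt
LDHA, chr11:18394313-18394562, plus strand: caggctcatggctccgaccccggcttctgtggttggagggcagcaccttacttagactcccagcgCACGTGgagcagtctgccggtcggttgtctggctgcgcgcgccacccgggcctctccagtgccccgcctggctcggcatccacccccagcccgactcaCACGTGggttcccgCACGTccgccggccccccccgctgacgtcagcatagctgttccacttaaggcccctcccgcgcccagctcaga
DDIT4, chr10:72273674-72273923, plus strand: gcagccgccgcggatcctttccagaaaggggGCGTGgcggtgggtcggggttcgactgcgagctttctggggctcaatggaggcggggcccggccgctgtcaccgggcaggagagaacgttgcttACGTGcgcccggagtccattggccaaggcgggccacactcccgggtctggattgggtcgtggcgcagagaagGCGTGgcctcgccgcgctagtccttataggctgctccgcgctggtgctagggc
EPAS1, chr2:46297157-46297406, plus strand: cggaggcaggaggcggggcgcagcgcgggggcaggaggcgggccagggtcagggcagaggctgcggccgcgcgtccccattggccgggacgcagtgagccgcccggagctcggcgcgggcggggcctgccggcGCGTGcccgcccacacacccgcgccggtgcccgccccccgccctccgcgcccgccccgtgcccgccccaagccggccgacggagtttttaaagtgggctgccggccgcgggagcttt
ADM, chr11:10304823-10305072, plus strand: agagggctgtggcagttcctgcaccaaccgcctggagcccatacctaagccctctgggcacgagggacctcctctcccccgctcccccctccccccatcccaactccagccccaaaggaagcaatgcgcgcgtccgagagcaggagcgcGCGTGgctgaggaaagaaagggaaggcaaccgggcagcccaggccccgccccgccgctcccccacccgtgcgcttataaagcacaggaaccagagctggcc
The HK2 run holds 3 matches, PFKP 0, LDHA 5, DDIT4 3, EPAS1 1 and ADM 1. In LDHA 4 of the matches are the strands of 2 palindromic E-boxes (CACGTG), the motif of MYC and MAX, which contains ACGTG on both strands. Matches were thus present in runs of genes above siNC (HK2, ADM), below it (DDIT4, EPAS1) and on both sides (LDHA), and absent from the run of PFKP, which was above siNC. PFKP has 3 further starts with windows of their own, some of them with a match.

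RefSeq windows of 250 bases before to 50 after a start were listed for 34 members, often with several starts, 62 windows in all. HK2, SLC16A3 and other genes have more than 1 start. ACGTG or GCGTG on either strand was found in 42 of 62 windows (67.7%), against 48.5% of all 35116 windows, and the E-box CACGTG, which overlaps it, in 8 (12.9% against 7.26%). The windows of members were richer in G and C, with a median of 68.8% against 58.7%, and the part of base composition was not tested. The MYB site CAACNG or TAACNG was found in 23 windows (37.1% against 46.2%) and the cell cycle element TTTGAA in 2 (3.23% against 15.2%). A match is only a match of letters. NDRG1, VEGFA, SLC2A3, BNIP3L, SLC16A1 and PFKFB2 were not matched to an entry.

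Transport was led by SLC16A1, the monocarboxylate transporter MCT1. SLC16A1 (chromosome 1, 112911847 to 112957013, minus strand, hg38) was at 18.9 RPKM (4034 reads) in siNC, 35.0 (7765 reads) in siMYBL2-1 and 27.5 (6746 reads) in siMYBL2-2, a mean of 31.2 ± 5.27 (SD, n = 2) for siMYBL2. Both siMYBL2 libraries were above siNC, 1.85-fold (95% counting interval 1.78 to 1.93) and 1.46-fold (1.40 to 1.52). In limma the change was 0.69 on the log2 scale (SE 0.30, p 0.0444, adjusted p 0.999), so it did not pass. Counting intervals are exact conditional binomial intervals on recovered reads and cover counting error only.

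The other lactate transporter, SLC16A3 (MCT4), which is known for lactate export in glycolytic and hypoxic cells, went both ways. It was at 5.22 RPKM in siNC, 5.98 in siMYBL2-1 and 3.87 in siMYBL2-2. This was 1.15 (1.08 to 1.22) and 0.742 (0.694 to 0.793) times siNC. The siMYBL2 libraries differed 1.55-fold (1.45 to 1.65) between themselves. The exons of SLC16A3 overlap those of CSNK1D on the other strand, with 94.6% of its exonic bases its own. CSNK1D had the same order of levels, at 8.43, 9.17 and 7.33 RPKM, and the part of the shared reads was not tested. SLC16A1 made up 78.3% (95% interval 77.4 to 79.2) of the summed RPKM of both transporters in siNC, 85.4% (84.8 to 86.0) in siMYBL2-1 and 87.7% (87.1 to 88.2) in siMYBL2-2, so that its share was higher in both siMYBL2 libraries. SLC2A1 (GLUT1), a glucose transporter, was at 8.50 RPKM (siNC), 10.4 (siMYBL2-1) and 8.66 (siMYBL2-2), 1.22-fold (1.14 to 1.30) siNC in siMYBL2-1 and 1.02-fold (0.955 to 1.09) in siMYBL2-2, of which the second was within counting error of 1. SLC2A3 (GLUT3) had 0, 4 and 6 reads, at or near the limit of 3 reads that a count of 0 allows (0.0121 RPKM in siNC).

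Hexokinases, which phosphorylate glucose, differed by isoform. HK2, the inducible isoform of many tumours (chromosome 2, 74833981 to 74893359, plus strand), was at 3.30 RPKM (805 reads) in siNC, 8.52 (2160 reads) in siMYBL2-1 and 4.43 (1240 reads) in siMYBL2-2, a mean of 6.47 ± 2.89 (SD, n = 2). This was 2.58-fold (2.38 to 2.80) and 1.34-fold (1.23 to 1.47) siNC. The siMYBL2 libraries differed 1.92-fold (1.79 to 2.06) between themselves, more than siMYBL2-2 differed from siNC, and the log2 change was 0.74 (SE 0.36, limma adjusted p 0.999). HK1, the widely expressed isoform, was at 13.9, 14.7 and 11.9 RPKM and stayed the more abundant one. HK2 was 19.2% (18.0 to 20.5) of the summed RPKM of both in siNC, 36.6% (35.4 to 37.9) in siMYBL2-1 and 27.2% (25.9 to 28.5) in siMYBL2-2. GPI, which isomerises glucose 6-phosphate, was at 5.70, 6.91 and 4.86 RPKM and went both ways.

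Phosphofructokinase commits the sugar to glycolysis, and its 3 genes had different directions. PFKP, the platelet type (chromosome 10, 3066333 to 3137712, plus strand), was at 15.6 RPKM in siNC, 27.7 in siMYBL2-1 and 18.9 in siMYBL2-2. This was 1.78-fold (1.70 to 1.86) and 1.21-fold (1.16 to 1.27) siNC. The siMYBL2 libraries differed 1.46-fold (1.41 to 1.52) between themselves, more than siMYBL2-2 differed from siNC. PFKL, the liver type, was instead at 7.35, 5.75 and 4.94 RPKM, 1.28-fold (1.21 to 1.35) and 1.49-fold (1.40 to 1.58) lower. PFKM, the muscle type, was at 5.19, 5.58 and 5.54 RPKM, 1.07-fold siNC in each siMYBL2 library. The ratio of PFKP to PFKL, in RPKM, was 2.12 (2.01 to 2.24) in siNC, 4.82 (4.58 to 5.07) in siMYBL2-1 and 3.83 (3.63 to 4.04) in siMYBL2-2. The limma adjusted p was 0.999 for each of the 3 genes.

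PFKFB enzymes set the level of fructose 2,6-bisphosphate, the activator of phosphofructokinase. PFKFB2 was at 1.22 RPKM (siNC), 2.35 (siMYBL2-1) and 1.77 (siMYBL2-2), 1.92-fold (1.73 to 2.15) and 1.45-fold (1.30 to 1.62) siNC. PFKFB3, the isoform known for its high kinase activity and its response to hypoxia, was at 14.5, 10.1 and 12.8 RPKM, below siNC in both. PFKFB4 was at 0.411, 0.364 and 0.291 RPKM and was too low to be tested. PFKFB3 stayed the most abundant of the 3 in every library, while PFKFB2 took 7.76% (7.10 to 8.46), 18.9% (17.8 to 20.1) and 12.1% (11.3 to 13.0) of the summed RPKM of PFKFB2 and PFKFB3. The log2 change was 0.46 (SE 0.29) for PFKFB2 and -0.33 (SE 0.30) for PFKFB3, and neither passed (limma adjusted p 0.999 for each).

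**Figure D2:**
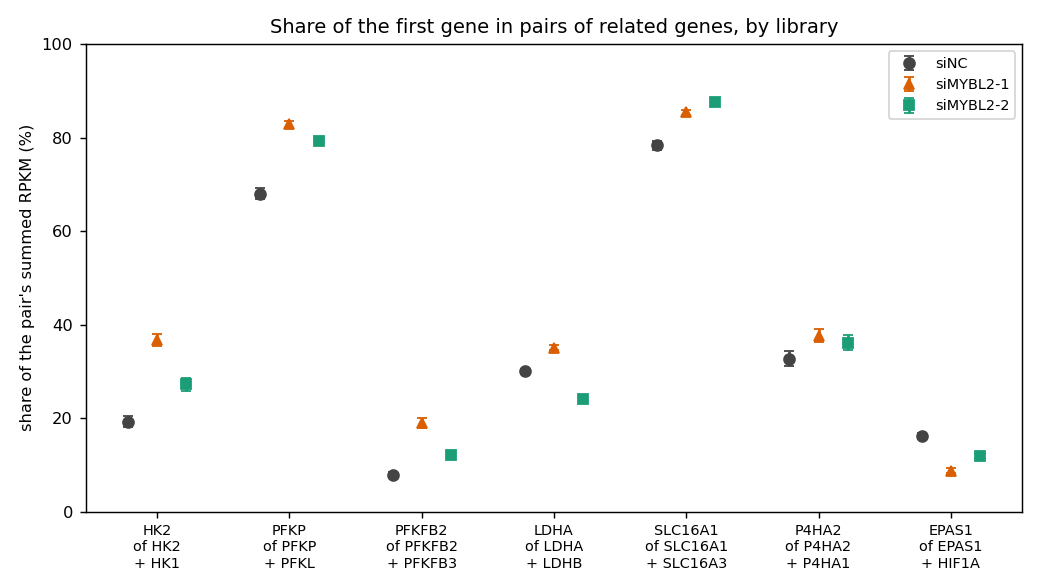
Share of the first gene in the summed RPKM of 7 pairs of related genes, in percent, 1 point per library (siNC circles, siMYBL2-1 triangles, siMYBL2-2 squares), with exact 95% counting intervals. HK2, PFKP, PFKFB2, SLC16A1 and P4HA2 had larger shares in both siMYBL2 libraries than in siNC and EPAS1 a smaller one. P4HA2 was at 32.7% in siNC, 37.6% in siMYBL2-1 and 36.1% in siMYBL2-2. LDHA was at 30.0% in siNC, 35.0% in siMYBL2-1 and 24.2% in siMYBL2-2.

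The enzymes from aldolase to pyruvate kinase lay near siNC. By RPKM over the deposited length ENO1 was the highest member, while PKM, whose deposited length is longer against its principal transcript, had more reads in every library (46594 in siNC, 50429 in siMYBL2-1 and 45100 in siMYBL2-2). ENO1, the ubiquitous enolase (chromosome 1, 8861002 to 8879249, minus strand), was at 173 RPKM (27606 reads) in siNC, 218 (36100 reads) in siMYBL2-1 and 221 (40402 reads) in siMYBL2-2. The siMYBL2 libraries lay close together, at 220 ± 2.09 (SD, n = 2), and were 1.26-fold (1.24 to 1.28) and 1.28-fold (1.26 to 1.30) siNC. The limma estimate was 0.34 on the log2 scale (SE 0.29, adjusted p 0.999). Of the 8 tested genes of this stretch, 3 were higher in both libraries, 2 lower in both and 3 opposite, and all ratios to siNC lay between 0.780 and 1.28.

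TPI1, the triosephosphate isomerase, was at 125 RPKM (siNC), 132 (siMYBL2-1) and 133 (siMYBL2-2), and the mutase gene PGAM1 at 32.0, 35.4 and 35.0 RPKM. PGK1, the first enzyme of the pathway to yield ATP, was below siNC in both, at 25.7, 20.5 and 24.6 RPKM, as was the neuronal enolase ENO2 at 1.44, 1.23 and 1.12 RPKM. Aldolase ALDOA (17.1, 20.3 and 14.2 RPKM) and pyruvate kinase PKM (135, 141 and 114 RPKM) were above siNC in siMYBL2-1 and below it in siMYBL2-2. GAPDH, often used as a reference gene, was at 161, 160 and 171 RPKM, and its small difference in siMYBL2-1 (log2 ratio -0.01) turned to 0.00383 when the libraries were rescaled by the median of ratios. ALDOC, the brain aldolase, had 10, 6 and 21 reads and was not tested.

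Several of these genes have processed pseudogene copies with rows of their own, whose reads cannot always be told apart from those of the parent. The 25 rows named after GAPDH held 87, 97 and 72 reads in siNC, siMYBL2-1 and siMYBL2-2, under 0.5% of those of GAPDH. Those of ENO1 held 880, 475 and 1189 reads, or 3.19%, 1.32% and 2.94% of ENO1. Copies were a larger share for BNIP3, described below, at 8.04%, 22.8% and 6.27% of its reads. An antisense row that overlaps GAPDH (RP5-940J5.9) was at 347, 340 and 347 RPKM, and although the library kit marks strand, the counting is not stated to use it, so its reads cannot be told apart from those of GAPDH. Rows that share exonic bases with PFKP (a row with a clone name, 12.1 RPKM in siNC, 24.0 in siMYBL2-1, 15.4 in siMYBL2-2), GPI (RP11-618P17.4, 17.8, 23.5 and 17.5 RPKM) and P4HA1 (RP11-344N10.2, 28.6, 34.3 and 24.2 RPKM) had the same order of levels as the member, with 97.5%, 94.1% and 98.5% of the exonic bases of these members their own. Rows that overlap HK2 (RP11-259N19.1, 1.94, 2.85 and 2.05 RPKM) and PFKFB2 (YOD1, 1.73, 2.69 and 2.02 RPKM) also had the order of their member. So did the row on ALDOA (CTD-2515O10.5, 1.77, 2.67 and 1.08 RPKM). Of the exonic bases of HK2, PFKFB2 and ALDOA, 99.9%, 96.9% and 91.5% were their own. The order differed for rows that overlap PFKM (SENP1), TPI1 (SPSB2) and ENO1 (ENO1-AS1). The part of the shared reads in all these members was not tested.

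At the end of the pathway the lactate dehydrogenase genes went in opposite directions to each other. LDHA, whose subunit is known to favour lactate formation, was at 53.5 RPKM (13370 reads) in siNC, 62.4 (16193 reads) in siMYBL2-1 and 43.7 (12522 reads) in siMYBL2-2, 1.17 (1.14 to 1.19) and 0.817 (0.797 to 0.837) times siNC. LDHB was at 125, 116 and 137 RPKM, 0.927 and 1.10 times siNC. By RPKM over the deposited length LDHB was the more abundant in each library. The siMYBL2 mean of LDHA, 53.0 ± 13.2 RPKM (SD, n = 2), was within the spread of its 2 libraries of siNC, and the limma adjusted p was 0.999. PDK1, which shuts pyruvate out of the mitochondrial cycle, was at 0.472, 0.419 and 0.448 RPKM and was not tested.

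Among the HIF factors EPAS1 had the larger difference. EPAS1 (chromosome 2, 46293667 to 46386703, plus strand) was at 10.5 RPKM (3073 reads) in siNC, 4.60 (1404 reads) in siMYBL2-1 and 6.65 (2241 reads) in siMYBL2-2, a mean of 5.62 ± 1.45 (SD, n = 2). It was 2.27-fold lower (2.13 to 2.42) in siMYBL2-1 and 1.57-fold lower (1.49 to 1.66) in siMYBL2-2, and both libraries lay below siNC. In limma the change was -0.81 on the log2 scale (SE 0.31, p 0.0255, adjusted p 0.934), so EPAS1 did not pass. HIF1A was the more abundant factor and nearer to siNC, at 54.0, 47.7 and 49.3 RPKM, 0.884 (0.860 to 0.908) and 0.914 (0.890 to 0.938) times siNC. The rows that share exonic bases with HIF1A were instead above siNC in both siMYBL2 libraries. They are RP11-618G20.1 (67.6, 79.1 and 83.0 RPKM) and HIF1A-AS1 (18.2, 19.1 and 21.7 RPKM). Of the exonic bases of HIF1A, 94.9% were its own, and the part of the shared reads was not tested. EPAS1 was 16.2% (15.7 to 16.8) of the summed RPKM of both factors in siNC, 8.79% (8.35 to 9.25) in siMYBL2-1 and 11.9% (11.4 to 12.4) in siMYBL2-2. HIF protein, which oxygen controls, was not measured here.

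The dioxygenases that depend on oxygen showed no common direction. EGLN1 (PHD2), the main oxygen sensor of HIF, was at 3.61 RPKM (siNC), 4.33 (siMYBL2-1) and 3.48 (siMYBL2-2). EGLN3 (PHD3), a sensitive HIF target, had only 54, 27 and 18 reads (0.182, 0.0877 and 0.0530 RPKM), 0.481 (0.292 to 0.778) and 0.291 (0.160 to 0.503) times siNC, and was too low to be tested. P4HA1 and P4HA2, collagen prolyl hydroxylases, were highest in siMYBL2-1. They stood at 11.0, 13.9 and 9.73 RPKM and at 5.36, 8.36 and 5.50 RPKM, and the siMYBL2 libraries differed 1.42-fold (1.33 to 1.53) and 1.52-fold (1.44 to 1.61). The histone demethylase KDM3A was at 4.78, 4.39 and 3.67 RPKM, below siNC in both.

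NDRG1 was the member with the largest difference that both siMYBL2 libraries shared. NDRG1, a stress-responsive gene known as a target of HIF and as a gene repressed by MYC proteins (chromosome 8, 133237171 to 133302022, minus strand), was at 4.56 RPKM (1802 reads) in siNC, 1.99 (818 reads) in siMYBL2-1 and 1.97 (893 reads) in siMYBL2-2, a mean of 1.98 ± 0.0160 (SD, n = 2). The siMYBL2 libraries were nearly equal and 2.29-fold (2.11 to 2.49) and 2.31-fold (2.13 to 2.51) below siNC. In limma the change was -0.90 on the log2 scale (SE 0.28, p 0.00920, adjusted p 0.691). All of its exonic bases were free of other rows. The adjusted p lay between 0.436 and 0.998 under the alternatives, so it passed under none of those in which it was tested.

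DDIT4 (REDD1), an inhibitor of mTORC1 induced by hypoxia and other stress, had the highest RPKM of the effectors over the deposited length. It was at 46.5 RPKM in siNC, 32.9 in siMYBL2-1 and 30.4 in siMYBL2-2. VEGFA, whose deposited length is far longer against its principal transcript, had more reads in siMYBL2-1 (4217 against 2832). It had fewer in siNC (2915 against 3850) and siMYBL2-2 (2773 against 2893). DDIT4 was 1.41-fold (1.34 to 1.48) and 1.53-fold (1.45 to 1.60) lower than in siNC. The limma estimate was -0.54 on the log2 scale (SE 0.29, adjusted p 0.999). Only 58.8% of its exonic bases were its own, and the antisense row RP11-442H21.2 had the same order of levels, at 95.4, 66.2 and 60.7 RPKM, so reads on the bases they share cannot be assigned to either. BNIP3L (NIX), a mitophagy receptor, was also below siNC in both, at 5.12, 3.84 and 4.21 RPKM. Its relative BNIP3 was at 1.45, 1.55 and 1.56 RPKM, and both of its counting intervals against siNC include 1.

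ADM was the effector with the largest difference above siNC. ADM encodes adrenomedullin, a vasodilator peptide, and was at 3.87 RPKM (423 reads) in siNC, 6.37 (724 reads) in siMYBL2-1 and 5.17 (649 reads) in siMYBL2-2. This was 1.65-fold (1.46 to 1.86) and 1.34-fold (1.18 to 1.52) siNC. The limma estimate was 0.47 on the log2 scale (SE 0.29, adjusted p 0.999). VEGFA, the angiogenic growth factor, went both ways, at 5.02, 6.99 and 4.16 RPKM, and had the largest difference within the siMYBL2 pair among the hypoxia genes, 1.68-fold (1.60 to 1.76). The antisense row RP1-261G23.7, which shares exonic bases with VEGFA, had the same order, at 93.4, 139 and 80.3 RPKM, and 98.7% of the exonic bases of VEGFA were its own. ANKRD37, a HIF target with 64.8% of its exonic bases free of UFSP2, was at 1.49, 1.44 and 1.69 RPKM. CA9, carbonic anhydrase IX and a widely used hypoxia marker, had 0 reads in all 3 libraries, which allows at most 0.0446 RPKM in siNC, 0.0430 in siMYBL2-1 and 0.0389 in siMYBL2-2. In CA9, 61.5% of the exonic bases were free of ARHGEF39.

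**Figure D3:**
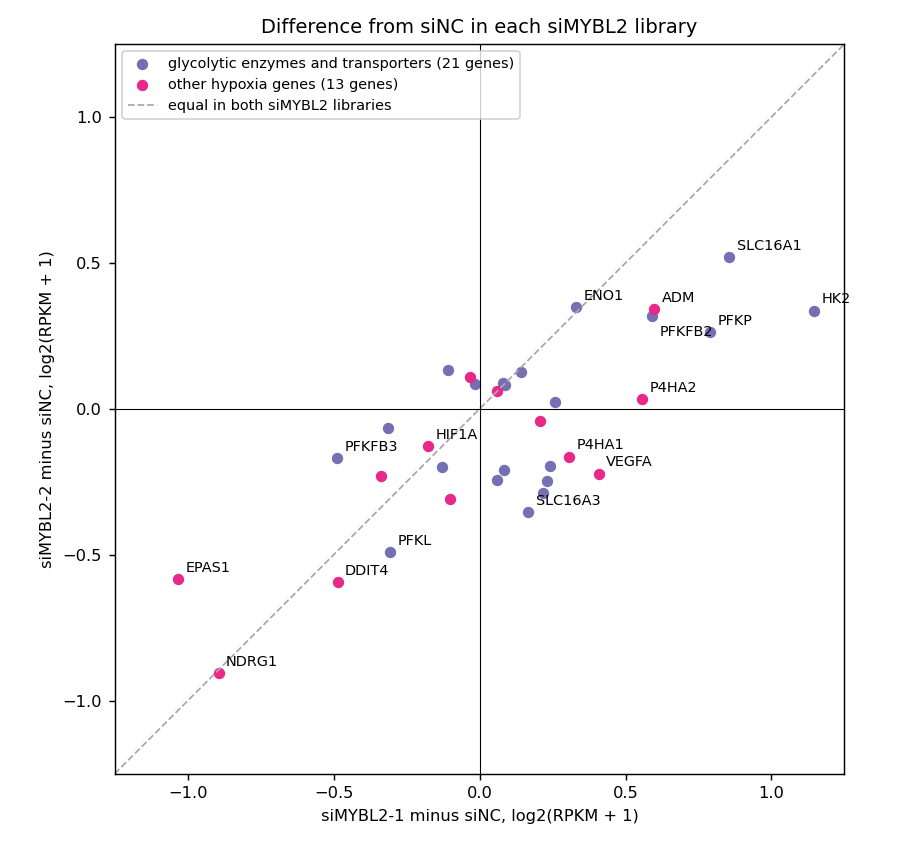
Difference from siNC on the log2(RPKM + 1) scale in siMYBL2-1 (horizontal) and siMYBL2-2 (vertical) for the 34 members tested, purple for 21 glycolytic genes and pink for 13 other hypoxia genes. The dashed line marks equal differences, and both axes share the siNC library. HK2, SLC16A1, PFKP, PFKFB2 and ADM lie above 0 on both axes, and NDRG1, EPAS1 and DDIT4 below 0 on both.

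Within the siMYBL2 pair, most glycolytic genes were higher in siMYBL2-1, nearly all of them by less than 1.5-fold. Of the 21 tested, 15 (71.4%) were higher in siMYBL2-1 than in siMYBL2-2, as were 8 of the 13 other hypoxia genes (61.5%), against 47.6% of all genes tested. The median log2 difference of siMYBL2-1 minus siMYBL2-2 was 0.23 for the glycolytic genes, 0.11 for the others and -0.02 for all genes. On the same scale a difference of at least 1.5-fold within the pair was seen in 2 of the 34 members, HK2 and VEGFA. That was 1 of the 21 glycolytic genes (4.76%) and 1 of the 13 others (7.69%), below the 12.8% of all genes. These values are a description of 2 libraries, with no test.

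By role, all 3 tested transporters and all 3 of HK1, HK2 and GPI were higher in siMYBL2-1, with medians of 0.34 and 0.43, as were 4 of 5 tested phosphofructokinase and PFKFB genes (median 0.18). From aldolase to pyruvate kinase 4 of 8 were higher (median 0.00), among them ALDOA at 0.48 and PKM at 0.30, and LDHA was higher by 0.50. PFKFB3 and LDHB were higher in siMYBL2-2 by 0.32 and 0.24 on the log2 scale, that is, at -0.32 and -0.24 in siMYBL2-1 minus siMYBL2-2. The largest value of the other sign among all members was that of EPAS1, at -0.45.

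**Figure D4:**
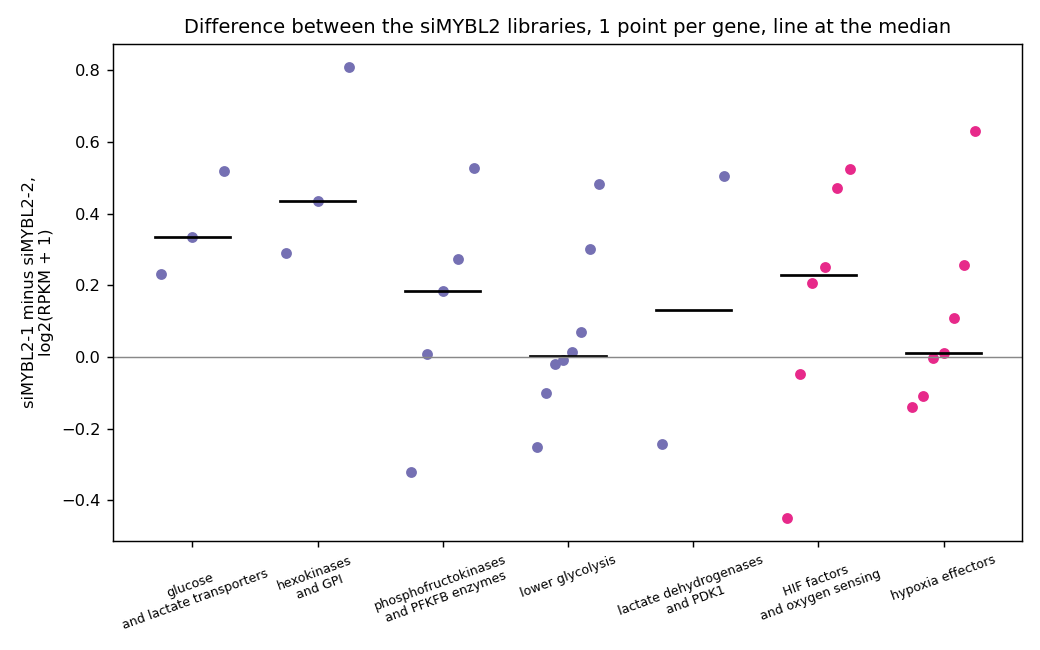
siMYBL2-1 minus siMYBL2-2 on the log2(RPKM + 1) scale, 1 point per tested member (purple glycolytic, pink other hypoxia genes) by role, with a black line at the median of each role. Transporters, hexokinases and GPI lie wholly above 0, with HK2 highest at 0.81, and lower glycolysis is centred near 0.

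Genes of the HIF system outside the members were mixed. Of 13 control genes 12 were tested, of which 6 were lower than siNC in both libraries, 5 higher in both and 1 opposite, and 0 passed limma (smallest adjusted p 0.999). ARNT, the partner of both alpha subunits, was at 6.21 RPKM (siNC), 4.19 (siMYBL2-1) and 4.63 (siMYBL2-2), and VHL, the ligase subunit that marks them for decay, at 47.8, 35.1 and 36.5 RPKM. RBX1, a ring protein of the same ligase, was higher at 3.77, 4.32 and 7.02 RPKM, and CITED2, an inhibitor of HIF coactivators, at 2.58, 2.76 and 4.06 RPKM.

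Of 32 further HIF targets 21 were tested, of which 9 were lower in both, 3 higher in both and 9 opposite, with 0 calls (smallest limma adjusted p 0.957). STC1 (stanniocalcin) was at 3.02, 1.01 and 1.76 RPKM and the cyclin gene CCNG2 at 4.30, 2.32 and 2.67 RPKM, the lowest mean differences among those below siNC in both. JMJD6, a dioxygenase, was at 9.39, 12.7 and 11.8 RPKM and LOXL2, a lysyl oxidase of the matrix, at 1.34, 1.84 and 1.45 RPKM. STC2, chosen after its values were seen, had the highest mean difference of the list but was above siNC in siMYBL2-1 only, at 3.15, 10.2 and 3.10 RPKM. Among 20 further glycolytic genes 11 were tested, with 4 higher in both, 3 lower in both, 4 opposite and 0 calls (smallest limma adjusted p 0.999). The muscle enolase gene ENO3 was at 11.4, 17.4 and 14.6 RPKM and PGAM5, a mitochondrial phosphatase, at 5.61, 9.31 and 6.87 RPKM, while PGM1, which links glycogen to glycolysis, was at 8.00, 4.81 and 6.71 RPKM. PGAM4, a near copy of PGAM1 at 1.36, 0.844 and 1.19 RPKM, rests on at most 42 reads that the counting may have split with PGAM1.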

How the data were processed

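The authors deposited 1 table with an RPKM column for each library, beside the exon intervals and exonic length of each row, per the file headers. Per the submitters' processing notes, which give no roles, cutadapt 1.9, HISAT2 2.0.4, StringTie 1.3.4d and hg38 were used. The library kit marked strand, per the labels' protocols, but what counted the reads, with which strand setting and annotation, was not given in the sources used here; RPKM times length gave whole reads for 100% of values within 0.001 reads, so the reads behind each value were recovered; 3 reads on 1 kilobase correspond to 0.0650 to 0.0745 RPKM. Columns were matched to samples by name.

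The siMYBL2 libraries were taken as 2 samples of 1 group. limma 3.58.1 (R 4.3.3, trend, 1 residual degree of freedom) was fitted on log2(RPKM + 1) across all genes averaging 1 RPKM or more. The fit was also run on simulated data, with changes larger than that of any member and with the spread of the siMYBL2 pair in siNC. That run does not bear on smaller changes or on a different spread in siNC. Alternatives were a pseudocount of 0.1, no filter, a filter at 5 RPKM, 2 other scalings, robust moderation, limma-voom and leaving out each siMYBL2 library. All members are named; intervals are given for the 4 of each group with the largest mean log2 ratio shared by both siMYBL2 libraries, the 3 with the largest difference within the pair, both HIF factors and, chosen after their values were seen, some further members. In the lists of other genes those named are the 2 highest and 2 lowest by mean log2 ratio among genes on the same side of siNC in both siMYBL2 libraries. Members and lists were chosen with earlier results of these data known. Sequences are from RefSeq, by symbol. A gene of the marker lists is not named here.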

Additional observations from a re-analysis of the deposited data

How the results depend on the processing

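Among the members, 0 were called under any of the 7 alternative fits, with a smallest adjusted p of 0.436 (limma-voom), and the sign of the mean log2 change was the same in every fit that tested it for all 34. Over all genes, 1 was called higher by limma-trend, 0 in each of 5 alternatives (no filter, genes of at least 5 RPKM, median-ratio scaling, scaling without mitochondrial genes, robust moderation), and 3 by limma-voom, which also called 7 lower in place of 0; the cause was not tested. The total degrees of freedom after moderation were 10.2 as reported, 2.06 without the filter and 6.66 with median-ratio scaling. With at least 5 RPKM, the other hypoxia genes lower in both numbered 3 in place of 6, among 7 genes, and their median log2 ratio in siMYBL2-1 was 0.31. Counted in 1 siMYBL2 library at a time, 6 to 10 glycolytic genes were lower and 11 to 15 higher than siNC, and 7 to 9 of the other hypoxia genes lower and 4 to 6 higher. The other counts and medians of the 2 groups stayed within 1.5 times, or within the spread of the siMYBL2 pair, under the other settings. No paired analysis was possible because siNC is 1 library. Depth limits statements on SLC2A3, CA9, ALDOC and EGLN3, which had at most 54 reads in a library.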

Other observations

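Genes around glycolysis that belong to no comparison above were measured as well. Of 12 genes that carry pyruvate into the mitochondrial cycle, 10 were tested, with 3 lower than siNC in both siMYBL2 libraries, 2 higher in both, 5 opposite and 0 limma calls (smallest adjusted p 0.999). PDHB, a subunit of pyruvate dehydrogenase, was at 37.0 RPKM (siNC), 21.3 (siMYBL2-1) and 34.0 (siMYBL2-2), and PDK3, a kinase that inhibits the complex, at 3.10, 1.67 and 2.60 RPKM. DLAT, its acetyltransferase, was at 2.67, 2.95 and 3.93 RPKM and the phosphatase gene PDP1 at 6.56, 9.06 and 7.20 RPKM. Only 1 of the 10 was higher in siMYBL2-1 than in siMYBL2-2 (47.6% of all genes), with a median difference of -0.38 on the log2 scale, where the glycolytic genes had 0.23.

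Of 7 genes of the pentose phosphate pathway, which makes NADPH and ribose from glucose 6-phosphate, 6 were tested, with 3 lower in both, 1 higher in both, 2 opposite and 0 limma calls (smallest adjusted p 0.999). The member above siNC was RPIA, the ribose 5-phosphate isomerase, at 3.88 RPKM (siNC), 6.79 (siMYBL2-1) and 6.19 (siMYBL2-2). PGD, a dehydrogenase that yields NADPH, was at 69.1, 61.5 and 57.3 RPKM and the transaldolase gene TALDO1 at 15.6, 13.0 and 13.8 RPKM.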
